A study of Mus musculus with 6 samples.

Results

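The genes described here are 40 genes of the ATF4 stress and amino acid supply programme, read in mouse CD4+ T cells re-stimulated under checkpoint antibodies. They were a listed set of symbols, chosen by their known place in this programme and partly selected on a measured value, the difference between the 2 anti-Lag3 libraries, so that difference is given below as a description with no test. Of the 40 genes, 39 had at least 10 reads over the 6 libraries and were among the 11877 genes tested, out of 47643 genes counted. *Vldlr*, a lipoprotein receptor gene, had 5 reads and lay just outside this minimum, while *Atf3* with 15 reads, *Slc7a11* with 32 reads and *Pycr1* with 67 reads were the members nearest to it on the inside. The set held 6 transcription factors, 4 tested stress effectors, 10 genes of amino acid and one-carbon synthesis, 8 genes of amino acid transport, and 11 genes of tRNA charging.

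All mice were of the Tg4 Tiger Nr4a3-Tocky strain, which carries a transgenic T cell receptor for myelin basic protein (MBP) peptide, a GFP reporter of *Il10*, and a Timer protein under *Nr4a3* whose blue form matures to red. Each mouse received 80 μg of 4Y MBP peptide under the skin and, 24 h later, 800 μg of antibody into the peritoneum, followed after 30 min by 8 μg of the peptide. The antibody was anti-PD1, anti-Lag3, or an isotype control, which the study's methods describe as a pool of rat IgG1 and rat IgG2a. Spleens were taken 4 h after the second peptide dose, CD4+ T cells positive for both Timer colours were sorted, and 3′ mRNA libraries were made, with 2 libraries in each of the 3 groups. There was no group without peptide, so the values compare antibodies within re-stimulated cells. The ages of the mice are not given in the sources used here, and the methods state that a further batch of 3 samples, sorted and processed together, was left out by the authors. Whether replicate numbers 1 and 2 mark such batches is not stated.

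ATF4 is a transcription factor whose protein is made when the initiation factor eIF2alpha is phosphorylated, an event triggered by kinases that sense amino acid shortage, endoplasmic reticulum stress, viral RNA, or lack of heme. With partners of the C/EBP family it binds C/EBP-ATF response elements (CARE) near the start of genes that make, import, and load amino acids onto tRNA, and of stress genes such as those for CHOP, TRIB3, and CHAC1. In T cells this programme is known as part of the metabolic change after activation, when the demand for amino acids rises. Since ATF4 is controlled to a large degree at translation, the level of its mRNA does not give the level of its protein.

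The CARE core, TGATGNAA on either strand, was searched in RefSeq promoter windows (GRCm38.p6, from 250 bases before to 50 bases after the start), which were matched for 34 of the 40 genes. It was present in 13 of the 34 (38.2%), against 4.51% of the 27025 genes with a window. The stretches below are shown because they hold the core of every member that had it and more than 67 reads, and each is printed with 16 bases on either side and the core in capitals.
Chac1: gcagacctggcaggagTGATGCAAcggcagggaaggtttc
Trib3: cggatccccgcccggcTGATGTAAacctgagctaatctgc
Asns: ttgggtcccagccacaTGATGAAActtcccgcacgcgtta
Slc1a4: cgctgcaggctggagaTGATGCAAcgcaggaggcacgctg
Aars: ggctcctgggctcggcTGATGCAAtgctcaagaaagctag
Gars: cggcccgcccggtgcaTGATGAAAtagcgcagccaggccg
Iars: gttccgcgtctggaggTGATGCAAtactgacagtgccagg
Tars: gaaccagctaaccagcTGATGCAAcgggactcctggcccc
Yars: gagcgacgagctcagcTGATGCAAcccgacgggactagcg

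These stretches lie at chr2:119351033-119351072 (minus strand) for *Chac1*, chr2:152344023-152344062 (plus strand) for *Trib3*, chr6:7693209-7693248 (minus strand) for *Asns*, chr11:20332694-20332733 (plus strand) for *Slc1a4*, and chr8:111033714-111033753 (minus strand) for *Aars*. Those of *Gars*, *Iars*, *Tars*, and *Yars* lie at chr6:55037955-55037994 (minus strand), chr13:49682121-49682160 (minus strand), chr15:11399650-11399689 (plus strand), and chr4:129189890-129189929 (plus strand). Counted along the gene with the RefSeq start as 1 and no position 0, the core began at −193 in *Chac1*, −23 in *Asns*, −4 in *Slc1a4*, −30 in *Gars*, and −15 in *Tars*. It began at 8 in *Iars*, 4 in *Yars*, and 15 in *Trib3*, inside the transcribed part. *Aars* had its core at −112 and another at 10. The core was also found in the windows of *Atf3*, *Vldlr*, *Pycr1*, and *Slc7a11*, the last with a core on each strand. By role, it was present in 1 of 6 transcription factors, 3 of 5 stress effectors, 2 of 10 synthesis genes, 2 of 6 transport genes, and 5 of 7 tRNA charging genes with a window. A match of letters is a description and not evidence of binding.

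The whole window of *Chac1*, the member with the largest called difference below, was chr2:119350992-119351291 on the plus strand, with the reverse complement of its core in capitals.
Chac1 promoter: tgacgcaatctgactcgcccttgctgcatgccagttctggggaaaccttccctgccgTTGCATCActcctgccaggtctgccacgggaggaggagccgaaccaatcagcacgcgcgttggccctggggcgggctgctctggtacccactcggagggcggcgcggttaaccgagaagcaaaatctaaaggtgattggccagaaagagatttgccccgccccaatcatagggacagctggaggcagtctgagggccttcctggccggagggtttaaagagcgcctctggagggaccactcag

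The ERSE element, which the ATF6 arm of the unfolded protein response uses, was present in 0 of the 34 windows, against 0.137% of all genes. The E-box CACGTG, bound by MYC and related factors, was present in 4 of 34 (11.8%), namely *Aldh18a1*, *Aars*, *Iars*, and *Tars*, against 8.09% of all genes.

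Levels are given as CPM, the reads of a gene for each 1000000 reads of a library after TMM scaling, and differences as log2. Log2 differences between single libraries use a prior count of 2, which makes them smaller than the plain ratio of CPM where reads are few. The libraries held between 2107715 and 2648920 reads, and 3 reads, taken as the smallest detectable number, correspond to between 1.11 and 1.44 CPM. These limits cover counting error only. The method reads only the 3′ ends of transcripts, so values are compared between libraries for 1 gene, not between genes. The noncoding RNA *Gm42418* took 17.4% to 21% of the reads and mitochondrial genes 8.54% to 9.23%. T cell markers were measured in every library (10 of 10 with at least 10 reads, summed level 2609 to 3009 CPM), and dendritic cell markers were near 0 (0 of 7 with at least 10 reads). Markers of other cells were also measured. Those of B cells summed to 51.1 to 132 CPM (7 of 8 with at least 10 reads, *Cd79a* at 0 reads). Those of CD8 and NK cells summed to 40.9 to 69.3 CPM (5 of 7), and those of macrophages and monocytes to 24.9 to 83.9 CPM (10 of 10). *Nr4a3*, the gene behind the sort, was at 51.4 and 45.1 CPM in the isotype libraries, 29.7 and 29.4 CPM with anti-PD1, and 40.9 and 36.8 CPM with anti-Lag3, with no call (lowest edgeR adjusted p, 0.195).

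The question for the programme was how its genes differed between antibodies, and whether these differences exceeded those between libraries of the same antibody. Only 2 of the 39 members passed the test in any of the 3 comparisons: *Atf4* and *Chac1* were higher with anti-PD1 than with anti-Lag3. *Atf4* was 1.60 times as high (log2 difference 0.68, SE 0.11, edgeR adjusted p = 0.00141) and *Chac1* 5.65 times as high (log2 difference 2.498, SE 0.47, edgeR adjusted p = 0.00396). Among all genes, 0.303% passed in this comparison, 29 higher and 7 lower with anti-PD1. By direction, 30 of 39 members were higher with anti-PD1 (median log2 difference 0.18, against a median near 0 over all genes), and 9 members (23.1%) had an unadjusted p under 0.05, all of them higher with anti-PD1, against 3.5% of all genes in that direction. Both anti-PD1 libraries lay above both anti-Lag3 libraries in 7 members (*Atf4*, *Atf5*, *Ddit3*, *Chac1*, *Pycr1*, *Slc38a2*, and *Tars*), or 17.9% of them, against 18.2% of all genes. None lay below in both libraries, against 17.7% of all genes. The share of members with higher libraries throughout was thus near that of all genes. The anti-Lag3 values entered the choice of members, so the counts, shares, and 2 calls of this comparison are not independent of that choice. The direction of the set rested on the replicate 2 libraries of both groups. Without anti-Lag3 replicate 2, 15 members were higher and 24 lower with anti-PD1 (median log2 difference −0.04), and without anti-PD1 replicate 2, 22 were higher and 17 lower (median log2 difference 0.02). Without anti-Lag3 replicate 1, 34 were higher (median log2 difference 0.39), but the anti-Lag3 group was then the single library whose low values entered the choice of members, so this is a description. *Ighm*, a B cell marker, was lower with anti-PD1 than with anti-Lag3 (log2 difference −0.88, SE 0.20, edgeR adjusted p = 0.0227). Summed B cell markers were at 65.2 and 51.1 CPM with anti-PD1 and 82.7 and 122.6 CPM with anti-Lag3, and their part in the differences of the members was not tested.

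With anti-PD1 against isotype, 0 of the 39 members passed the edgeR test, against 0.901% of all genes, and 4 (10.3%) had an unadjusted p under 0.05, against 8.12% of all genes. DESeq2 and limma-voom also called 0. The members with the smallest p were *Slc38a2* (log2 difference 0.35, SE 0.11, edgeR adjusted p = 0.196) and *Sars* (log2 difference −0.32, SE 0.12, edgeR adjusted p = 0.323). There were 14 members higher and 25 lower with anti-PD1, with a median log2 difference of −0.07. Both anti-PD1 libraries lay above both isotype libraries in 2 members (*Pycr1* and *Slc38a2*), against 19.2% of all genes, and below in 6 (*Mthfd1l*, *Slc7a11*, *Slc1a5*, *Eprs*, *Sars*, and *Wars*), or 15.4%, against 18.2% of all genes. The direction of the set depended on the library: without anti-PD1 replicate 1, 26 members were higher (median log2 difference 0.05), and without replicate 2, 31 were lower (median log2 difference −0.20). Of the markers of other cells, *Ighm* (log2 difference −0.89, edgeR adjusted p = 0.00836) and *Igkc* (−2.51, edgeR adjusted p = 0.00132) of B cells and *C1qa* of macrophages (−2.59, edgeR adjusted p = 0.0266) were lower with anti-PD1. Summed B cell markers were at 118.8 and 132 CPM in isotype, and summed macrophage markers at 83.9 and 59.2 CPM in isotype against 24.9 and 44.6 CPM with anti-PD1. The part of these cells in the result was not tested.

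With anti-Lag3 against isotype, 0 of the 39 members passed the edgeR test, against 0.0421% of all genes, which is 5 genes. There were 8 members, *Atf4*, *Ddit3*, *Chac1*, *Asns*, *Shmt2*, *Slc7a1*, *Lars*, and *Sars*, with an unadjusted p under 0.05 (20.5%), and all were lower with anti-Lag3, against 2.97% of all genes in that direction. DESeq2 and limma-voom called 0. *Atf4* had the smallest p (log2 difference −0.43, SE 0.11, edgeR adjusted p = 0.334). By direction, 34 members were lower and 5 higher with anti-Lag3, with a median log2 difference of −0.19. Both anti-Lag3 libraries lay below both isotype libraries in 13 members (33.3%), against 17.3% of all genes, and above in 0, against 17.3% of all genes. The 13 were *Atf4*, *Atf5*, *Ddit3*, *Asns*, *Shmt2*, *Slc7a1*, *Slc7a11*, *Eprs*, *Gars*, *Lars*, *Sars*, *Tars*, and *Wars*. This direction rested on anti-Lag3 replicate 2: without it, 21 members were higher and 18 lower, with a median log2 difference of 0.02. The low values of that library entered the choice of members. The shares set against all genes in this comparison are therefore a description and support nothing. Without replicate 1 the median was −0.46 and 7 members (*Atf4*, *Chac1*, *Trib3*, *Sesn2*, *Asns*, *Lars*, and *Nars*) of 16 genes in all had an adjusted p under 0.05. The anti-Lag3 group was then replicate 2 alone, assumed to vary like the other groups, and its low values entered the choice of members, so these calls support nothing.

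The comparisons share libraries and are not independent of each other, and an adjusted p above 0.05 does not show that levels were equal. In sorted bulk cells, fewer cells using a gene and less RNA per cell cannot be told apart.

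**Figure D1:**
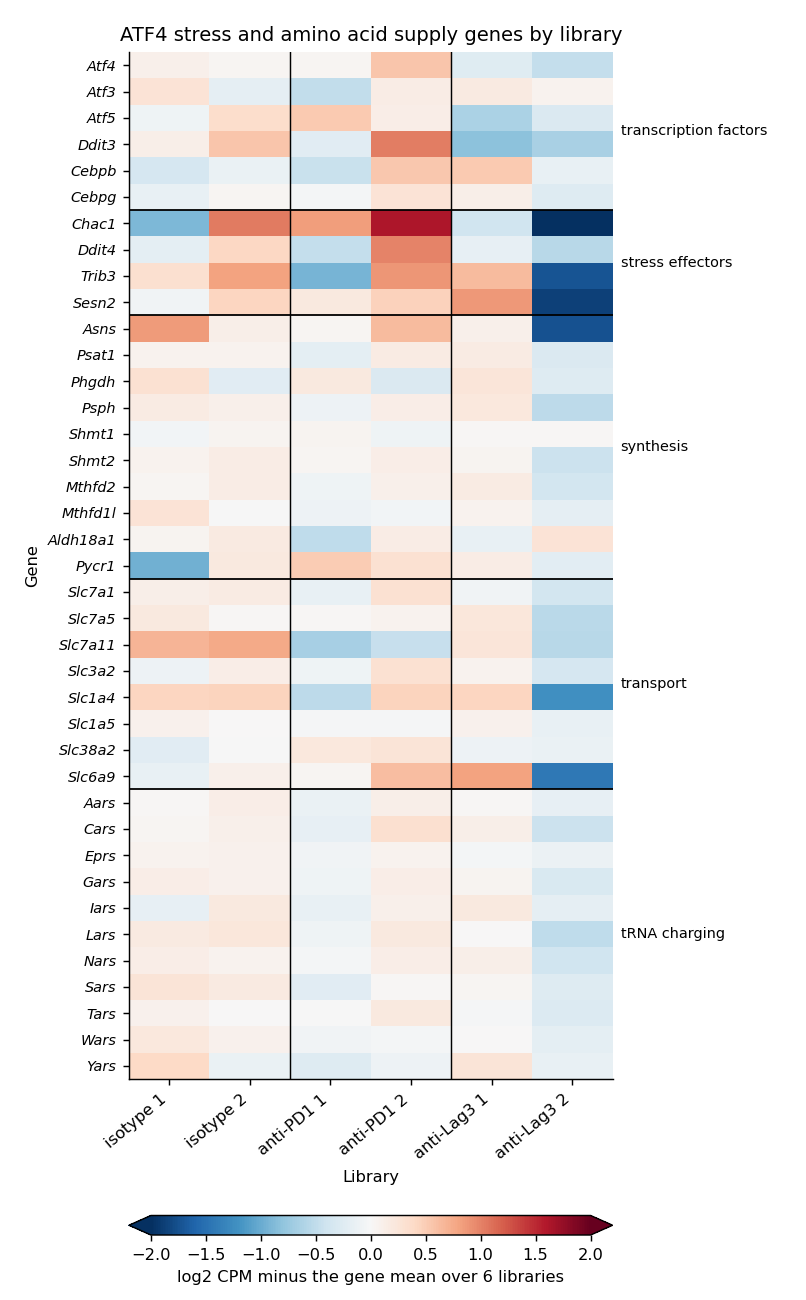
Level of each of the 39 tested members in each of the 6 libraries, as log2 CPM minus the gene's mean over the libraries (red, above the mean; blue, below; the scale stops at 2 either way). The column of anti-Lag3 replicate 2 is blue in nearly every row and darkest in *Chac1*, *Trib3*, *Sesn2*, *Asns*, *Slc1a4*, and *Slc6a9*, and the median over members there was −0.30, against 0.15 in anti-PD1 replicate 2.

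Among the transcription factors, *Atf4* itself (chr15:80255184-80257541, plus strand, GRCm38) was at 623 and 593 CPM in isotype, 594 and 847 CPM in anti-PD1, and 488 and 414 CPM in anti-Lag3. Both anti-Lag3 libraries were the lowest of the 6, and anti-PD1 replicate 2 was the highest while anti-PD1 replicate 1 was level with isotype. The group means were 608 ± 21.6, 720.2 ± 179, and 451 ± 52.7 CPM (SD, n = 2 each). Between anti-PD1 and anti-Lag3, the log2 difference was 0.55 without anti-Lag3 replicate 2 and 0.80 without anti-Lag3 replicate 1. It was not called without anti-PD1 replicate 2 (log2 difference 0.40) or by DESeq2 (log2 difference 0.67, adjusted p = 0.323). The anti-Lag3 values entered the choice of members, so the size of this difference with a library left out is a description.

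*Ddit3* encodes CHOP, a C/EBP family factor that acts in stress-induced cell death. It was at 26.4 and 36.2 CPM in isotype, 20.6 and 50.7 CPM in anti-PD1, and 13.5 and 15.2 CPM in anti-Lag3, from 32 to 124 reads per library. Both anti-Lag3 libraries were below all others, and the anti-PD1 libraries were 2.46 times apart. The difference between anti-PD1 and anti-Lag3 did not pass (log2 difference 1.32, SE 0.32, edgeR adjusted p = 0.0547). With a library left out, this log2 difference ran from 0.52 to 1.81. *Ddit3* overlaps *Mars*, a cytosolic tRNA synthetase gene on the opposite strand, and further identifiers of its own symbol, and the strand setting of the authors' counting is not given in the sources used here, so reads of the overlap may not be separated. All tested members overlap another annotated gene in this way, on either strand, except *Atf4*, *Chac1*, *Ddit4*, *Trib3*, *Asns*, *Phgdh*, *Pycr1*, *Slc7a1*, *Slc3a2*, *Slc1a4*, *Slc1a5*, *Slc38a2*, *Eprs*, *Gars*, *Nars*, and *Tars*.

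*Cebpb* and *Cebpg* encode C/EBP partners of ATF4. *Cebpb* was at 9.43 and 10.9 CPM in isotype, 8.63 and 18.0 CPM in anti-PD1, and 17.7 and 10.8 CPM in anti-Lag3, so that all 3 groups overlapped. *Cebpg* was at 48.5 and 55.5 CPM in isotype, 52.2 and 65.0 CPM in anti-PD1, and 58.6 and 44.9 CPM in anti-Lag3, again with overlapping groups. *Atf5*, a relative of *Atf4* that is also controlled at translation, was low, at 6.60 and 9.26 CPM in isotype, 10.5 and 7.77 CPM in anti-PD1, and 4.22 and 5.57 CPM in anti-Lag3. Its anti-Lag3 libraries were the lowest, from 10 and 15 reads, and it did not pass (anti-PD1 against anti-Lag3, adjusted p = 0.818). *Atf3*, a stress-induced repressor, had 1 to 3 reads per library, at or under the limit of detection in every group, and no fold is given for it.

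The stress effectors were the members with the widest spread. *Chac1* (chr2:119351229-119354381, plus strand, GRCm38) encodes an enzyme that degrades glutathione. It was at 6.60 and 27.8 CPM in isotype, 24.0 and 41.7 CPM in anti-PD1, and 9.70 and 2.23 CPM in anti-Lag3, from 14, 69, 50, 102, 23, and 6 reads. The anti-PD1 and anti-Lag3 libraries did not overlap, but the isotype libraries, 4.21 times apart, overlapped both other groups. Group means were 17.2 ± 14.97 CPM for isotype, 32.8 ± 12.6 CPM for anti-PD1, and 5.96 ± 5.28 CPM for anti-Lag3 (SD, n = 2 each). The call rested on each of the replicate 2 libraries: without anti-PD1 replicate 2 the adjusted p was 0.623, and without anti-Lag3 replicate 2 it was 0.114 (log2 differences 2.03 and 1.76). Against isotype, *Chac1* did not pass with either antibody when all libraries were used. With a library left out, its log2 difference from isotype ran from 0.25 to 2.31 for anti-PD1. For anti-Lag3 it ran from −2.95 to −0.18. Between anti-PD1 and anti-Lag3, DESeq2 gave an unadjusted p of 0.0258 and no adjusted p for *Chac1*, as for 13 of the 39 members.

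*Ddit4*, which encodes REDD1, an inhibitor of mTORC1, was at 51.4 and 78.9 CPM in isotype, 42.2 and 119 CPM in anti-PD1, and 52.7 and 40.1 CPM in anti-Lag3. Anti-PD1 held both the highest library and nearly the lowest, and the difference from anti-Lag3 did not pass (log2 difference 0.82, SE 0.26, edgeR adjusted p = 0.315). With a library left out, this log2 difference ran from −0.13 to 1.36, so its sign depended on the library. *Trib3*, whose pseudokinase product restrains AKT and feeds back on ATF4, was at 27.3 and 38.6 CPM in isotype, 11.0 and 40.5 CPM in anti-PD1, and 34.2 and 5.94 CPM in anti-Lag3. Its libraries were 3.67 times apart within anti-PD1 and 5.75 times apart within anti-Lag3, and the groups overlapped. *Sesn2*, which encodes a leucine sensor that restrains mTORC1, was at 15.1 and 21.7 CPM in isotype, 18.2 and 22.1 CPM in anti-PD1, and 29.5 and 3.71 CPM in anti-Lag3. The highest and the lowest library for *Sesn2* were both anti-Lag3, 7.95 times apart, the largest such gap of any member, from 70 and 10 reads.

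**Figure D2:**
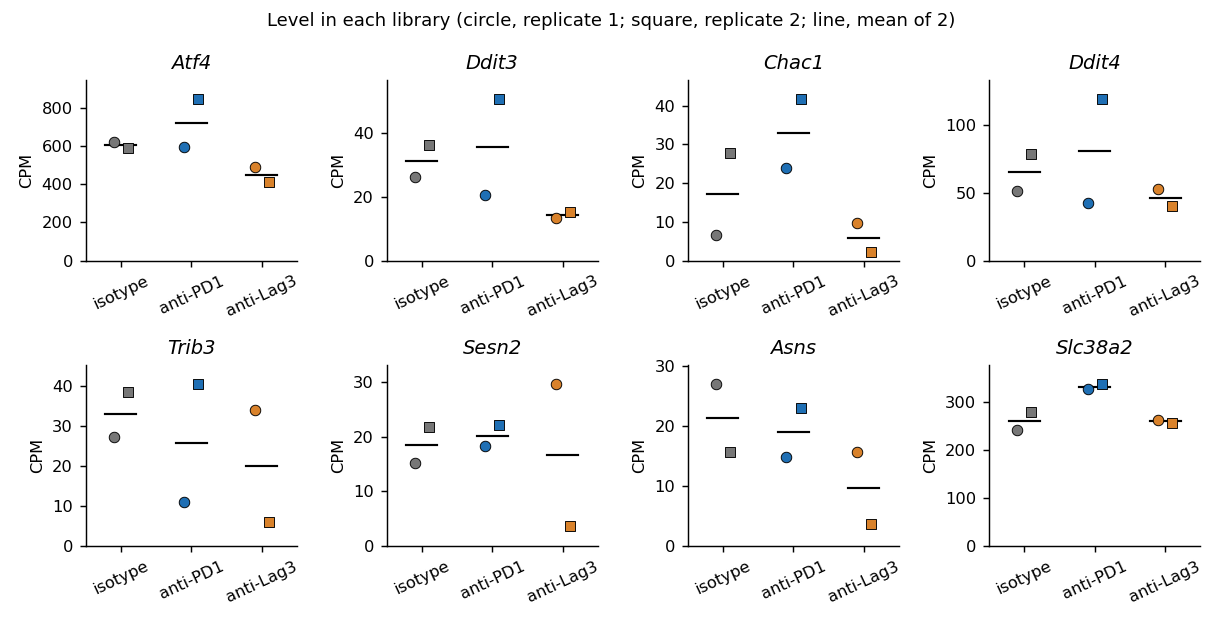
CPM of 8 members in each library (circle, replicate 1; square, replicate 2; line, mean of the 2 libraries; each vertical axis starts at 0). *Atf4*, *Chac1*, and *Ddit3*, the last not called, separate anti-PD1 from anti-Lag3, and *Slc38a2*, also not called, separates anti-PD1 from both other groups. In *Trib3*, *Sesn2*, and *Asns* the 2 anti-Lag3 libraries lie 4.20 to 7.95 times apart.

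In amino acid and one-carbon synthesis, no member passed in any comparison, and the gap between the anti-Lag3 libraries was widest in *Asns*, which encodes asparagine synthetase, the classic amino acid response gene. *Asns* was at 26.9 and 15.7 CPM in isotype, 14.9 and 22.9 CPM in anti-PD1, and 15.6 and 3.71 CPM in anti-Lag3. The first anti-Lag3 library was level with the lower isotype and anti-PD1 libraries, and the second, with 10 reads, was 4.20 times lower. Anti-Lag3 against isotype gave a log2 difference of −1.15 (SE 0.42, edgeR adjusted p = 0.673).

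*Psat1* and *Psph* act in serine synthesis, *Shmt2* converts serine to glycine in mitochondria, and *Mthfd2* is the next enzyme of the mitochondrial folate pathway. *Psat1* was at 274.3 and 274 CPM in isotype, 227 and 290.3 CPM in anti-PD1, and 292 and 214 CPM in anti-Lag3. *Mthfd2* was at 492 and 526 CPM in isotype, 449 and 512 CPM in anti-PD1, and 532 and 371 CPM in anti-Lag3. In both genes the highest and the lowest library were the 2 anti-Lag3 libraries, 1.37 and 1.44 times apart, while the isotype libraries were 1.00 and 1.07 times apart. *Shmt2* was at 195 and 205 CPM in isotype, 189.8 and 203 CPM in anti-PD1, and 192 and 138 CPM in anti-Lag3, with anti-Lag3 replicate 2 below the other 5 libraries. *Psph* likewise reached 47.9 CPM in anti-Lag3 replicate 2, against 64.7 to 80.5 CPM in the other 5 libraries.

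*Shmt1*, the cytosolic counterpart of *Shmt2*, stayed between 144 and 159 CPM in all 6 libraries and was 1.00 times apart within anti-Lag3. *Phgdh*, the first enzyme of serine synthesis, was lower in replicate 2 of every group, with log2 differences of −0.53 for isotype, −0.48 for anti-PD1, and −0.50 for anti-Lag3. *Aldh18a1*, which starts proline synthesis, was the sole synthesis gene higher in anti-Lag3 replicate 2 (27.8 and 37.5 CPM). *Mthfd1l*, a mitochondrial folate enzyme, ranged from 106 to 146 CPM and *Pycr1*, the last enzyme of proline synthesis, from 1.89 to 6.71 CPM from 4 to 14 reads.

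In amino acid transport, the member nearest to a call against isotype was *Slc38a2*, which encodes SNAT2, a sodium-coupled carrier of small neutral amino acids induced in amino acid shortage. *Slc38a2* was at 240.3 and 279 CPM in isotype, 326 and 336 CPM in anti-PD1, and 262 and 256 CPM in anti-Lag3. Both anti-PD1 libraries were above the other 4, and the libraries of each group were at most 1.16 times apart, the anti-Lag3 libraries included. Its log2 difference between anti-PD1 and isotype stayed between 0.25 and 0.46 when any library was left out, with adjusted p values of 0.104 to 0.750 over all settings, and it did not pass in any of them.

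*Slc3a2* encodes the heavy chain that pairs with *Slc7a5* to carry leucine and other large neutral amino acids. *Slc3a2* was at 214 and 251 CPM in isotype, 215 and 284 CPM in anti-PD1, and 242 and 182 CPM in anti-Lag3. *Slc7a5* was at 52.2 to 60.7 CPM in 5 libraries and 35.3 CPM in anti-Lag3 replicate 2. *Slc7a1*, which carries arginine and lysine, was at 369 and 379 CPM in isotype, 305 and 416 CPM in anti-PD1, and 322 and 263 CPM in anti-Lag3. Anti-Lag3 replicate 2 was thus the lowest of the 6 libraries in each of these genes.

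*Slc6a9*, a glycine carrier, was at 6.60 and 8.05 CPM in isotype, 7.67 and 11.9 CPM in anti-PD1, and 13.5 and 2.23 CPM in anti-Lag3. Its anti-Lag3 libraries were the highest and the lowest of the 6, from 32 and 6 reads. *Slc1a4*, which exchanges alanine, serine, and cysteine, was at 24.0 CPM in anti-Lag3 replicate 1 and 7.06 CPM in replicate 2, and at 12.0 and 24.1 CPM in the anti-PD1 libraries. *Slc1a5*, the glutamine carrier ASCT2, stayed between 189 and 223 CPM in all 6 libraries. *Slc7a11*, the cystine carrier, had 8 and 10 reads in isotype, 2 and 3 in anti-PD1, and 6 and 3 in anti-Lag3, too few for a fold to be read.

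The tRNA charging genes encode synthetases that load an amino acid onto its tRNA after which each is named, and none of the 11 passed in any comparison. All 11 were lower with anti-Lag3 than with isotype (median log2 difference −0.21), against 5929 of all 11877 genes tested. Without anti-Lag3 replicate 2, 7 of 11 were lower. The low values of that library entered the choice of members, so these counts are a description. *Eprs*, for glutamate and proline, was at 741 and 745 CPM in isotype, 667 and 739.7 CPM in anti-PD1, and 689 and 650.0 CPM in anti-Lag3. *Nars*, for asparagine, was at 546 and 527 CPM in isotype, 489 and 546 CPM in anti-PD1, and 539.8 and 378 CPM in anti-Lag3. The isotype libraries of these genes were 1.00 and 1.04 times apart, while the anti-Lag3 libraries were 1.06 and 1.43 times apart.

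*Lars*, for leucine, was at 335 and 347 CPM in isotype, 278 and 339 CPM in anti-PD1, and 296 and 207 CPM in anti-Lag3. Both anti-Lag3 libraries were below both isotype libraries, and replicate 2 was the lowest of all (anti-Lag3 against isotype, log2 difference −0.44, SE 0.13, edgeR adjusted p = 0.485). *Sars*, for serine, was at 391 and 372 CPM in isotype, 279.8 and 332 CPM in anti-PD1, and 337 and 273 CPM in anti-Lag3. Here both antibody groups lay below isotype without overlap, with log2 differences of −0.32 for each, and neither passed (edgeR adjusted p = 0.323 and 0.673). *Cars*, for cysteine, was at 121 and 126 CPM in isotype, 104 and 147 CPM in anti-PD1, and 128 and 86.5 CPM in anti-Lag3, with overlapping groups. Among the remaining synthetase genes, *Aars* (alanine), *Gars* (glycine), *Iars* (isoleucine), *Tars* (threonine), *Wars* (tryptophan), and *Yars* (tyrosine), the gap between the anti-Lag3 libraries ran from 1.15 times in *Aars* to 1.335 times in *Yars*.

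The spread within groups was set beside the differences between groups, as the absolute log2 difference between 2 libraries, taken within each group and averaged over the 4 library pairs of 2 groups. For all 39 members the median was 0.12 within isotype, 0.27 within anti-PD1, and 0.41 within anti-Lag3. Between groups it was 0.25 for anti-PD1 and isotype, 0.28 for anti-Lag3 and isotype, and 0.34 for anti-PD1 and anti-Lag3. The median difference between the 2 anti-Lag3 libraries was thus larger than each median between groups, and that between the isotype libraries smaller. Over all genes tested the same medians were 0.31, 0.29, and 0.30 within groups and 0.38, 0.36, and 0.36 between groups, close together in all 3 groups. How the members stood against all genes depended on the scale, since many of the genes tested had few reads. In log2 CPM the members lay below all genes within isotype and anti-PD1 and above within anti-Lag3. In the deposited rlog values they lay above in all 3 groups (0.0564 against 0.0422 within isotype, 0.13 against 0.0405 within anti-PD1, and 0.185 against 0.0423 within anti-Lag3). Among genes with at least 1000 reads they lay below within isotype (0.0745 against 0.127) and above within anti-PD1 (0.21 against 0.121) and anti-Lag3 (0.33 against 0.141).

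By role, the order was the same for synthesis, transport, and tRNA charging. Within isotype, anti-PD1, and anti-Lag3 the medians were 0.12, 0.21, and 0.46 for synthesis, 0.13, 0.30, and 0.59 for transport, and 0.07, 0.21, and 0.36 for tRNA charging. Their largest median between groups was 0.27 for synthesis, 0.37 for transport, and 0.25 for tRNA charging, each below the anti-Lag3 value. Stress effectors had the widest values throughout, 0.56, 1.13, and 2.07 within groups and 0.82 to 1.34 between them. Transcription factors differed from the other roles, with 0.32, 0.58, and 0.29 within groups and 0.58 between anti-PD1 and anti-Lag3, so that their spread was widest in anti-PD1. Gene by gene, the anti-Lag3 libraries differed by more than anti-PD1 and anti-Lag3 did in 10 of 11 tRNA charging genes, 8 of 10 synthesis genes, 6 of 8 transport genes, 2 of 4 stress effectors, and 2 of 6 transcription factors, or 28 of 39 members (71.8%), against 49.4% of all genes. Members were chosen partly for the anti-Lag3 gap, so this share is a description.

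**Figure D3:**
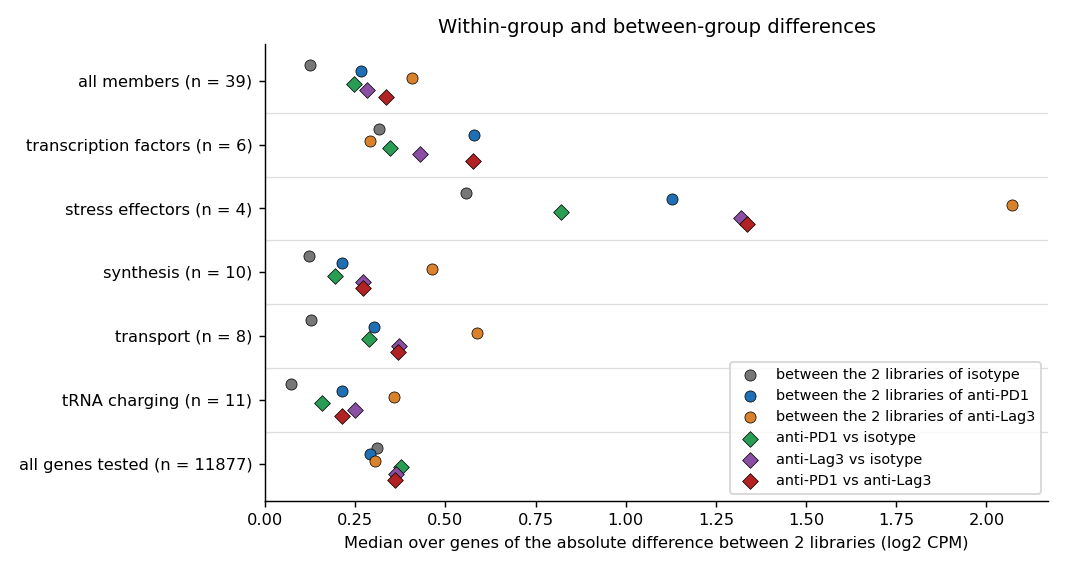
Median over genes of the absolute log2 CPM difference between 2 libraries, within each group (circles) and between groups (diamonds), for all members, each role, and all genes tested. For synthesis, transport, and tRNA charging the anti-Lag3 circle (0.46, 0.59, and 0.36) lies to the right of every diamond, while for all genes the 6 values lie close together, from 0.29 to 0.38.

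The direction of the differences within groups was shared across the set. Anti-Lag3 replicate 2 was lower than replicate 1 in 36 of 39 members, against 49.2% of all genes, with a median log2 difference of −0.39. It was lower by over 1 on the log2 scale in 6 members, against 6.22% of all genes. These were *Sesn2* (−2.74), *Trib3* (−2.37), *Slc6a9* (−2.22), *Asns* (−1.85), *Chac1* (−1.78), and *Slc1a4* (−1.65), and the members that went the other way were *Aldh18a1* (0.42), *Atf5* (0.34), and *Ddit3* (0.16). Since members were chosen partly for this gap, nothing is read from it beyond its shape.

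The anti-PD1 libraries were not named in the choice of members, but that choice was made with earlier results of these data known. Their gap is thus not independent of the choice either. Within anti-PD1, replicate 2 was higher than replicate 1 in 34 of 39 members, against 50.5% of all genes, with a median log2 difference of 0.25. It was higher by over 1 on the log2 scale in 3, *Trib3* (1.80), *Ddit4* (1.48), and *Ddit3* (1.27), against 6.17% of all genes. The exceptions were *Atf5*, *Phgdh*, *Shmt1*, *Pycr1*, and *Slc1a5*. All 11 tRNA charging genes and all 4 stress effectors were higher in anti-PD1 replicate 2 and lower in anti-Lag3 replicate 2. Over the whole set, 32 of 39 members had both directions, against 25.3% of all genes. The anti-Lag3 direction was part of the choice of members, so this joint count is a description and nothing is read from it. In isotype, replicate 2 was higher in 24 members, against 50.6% of all genes, with a median log2 difference of 0.07 and a largest value of 1.94 in *Chac1*. With a single library on each side these differences have no replicate check and no test, and genes that share a regulator are not independent of each other. The counts of 36 and 34 members were the same under 2 other scalings and in the deposited rlog values.

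**Figure D4:**
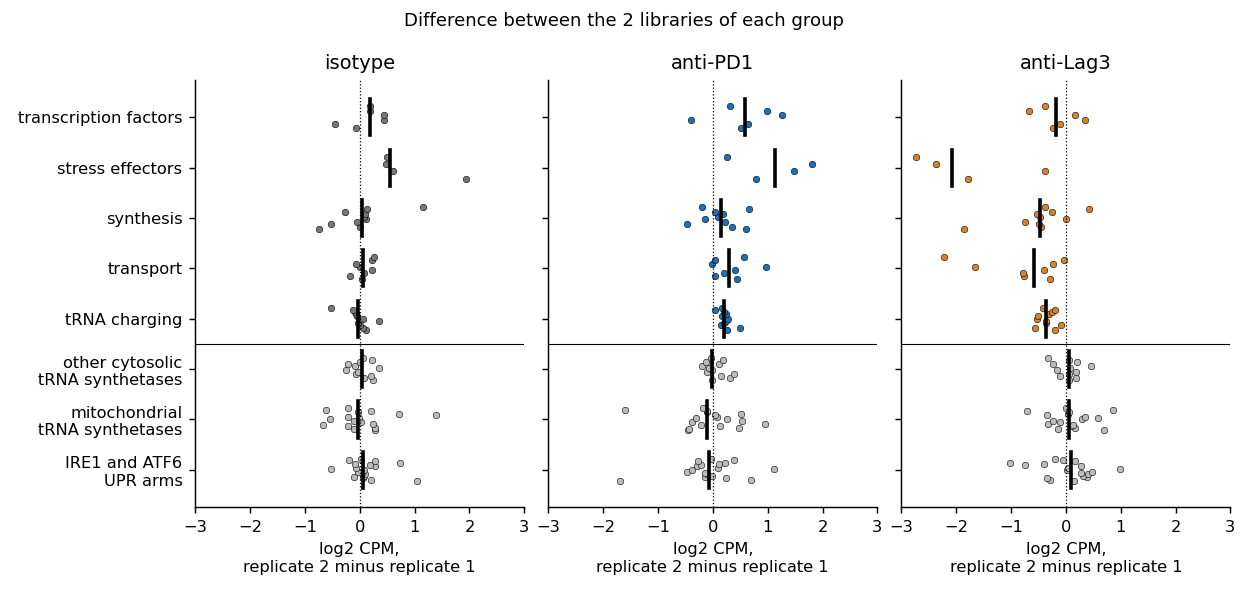
Log2 CPM of replicate 2 minus replicate 1 for each gene (points) and its median (bar) in each group, by role (coloured) and in 3 lists of other genes (grey). The anti-Lag3 points of the 5 roles lie mostly left of 0 (36 of 39) and the anti-PD1 points mostly right (34 of 39), while the medians of the 3 grey lists lie between −0.11 and 0.09 in every group.

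The summed level of the 39 members gives the size of these gaps per library. It was 6667 and 6766 CPM in isotype, 6017 and 7246 CPM in anti-PD1, and 6438 and 5091 CPM in anti-Lag3. The highest and the lowest of the 6 were thus the replicate 2 libraries of anti-PD1 and anti-Lag3. The tRNA charging genes alone summed to 3104 CPM in anti-Lag3 replicate 1 and 2503 CPM in replicate 2, and the stress effectors to 126 and 52.0 CPM. Between the same libraries, summed markers of B cells were at 82.7 and 122.6 CPM, those of red blood cells and platelets at 21.9 and 51.6 CPM, those of macrophages at 41.8 and 40.5 CPM, and those of T cells at 3009 and 2759 CPM. Between the anti-PD1 libraries, red blood cell and platelet markers were at 18.7 and 45.8 CPM and B cell markers at 65.2 and 51.1 CPM. Of the red blood cell and platelet markers, *Pf4* had 0 reads and *Ppbp* 3 over the 6 libraries. The part of all these markers in the gaps between libraries was not tested.

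Other genes of amino acid supply and of the stress response were read from 8 lists, 108 tested genes in all, to see how far the pattern reached. None passed the edgeR test in any comparison, with 8, 4, and 3 genes at an unadjusted p under 0.05 in anti-PD1 against isotype, anti-Lag3 against isotype, and anti-PD1 against anti-Lag3. DESeq2 called 0 in all 3, and limma-voom called 1, *Herpud1*, higher with anti-PD1 than with anti-Lag3 (adjusted p = 0.0419, and 0.116 in edgeR). Of 12 other cytosolic synthetase genes and their scaffold genes, 4 were lower in anti-Lag3 replicate 2 and 5 higher in anti-PD1 replicate 2, with medians of 0.06 and −0.01. Of 17 mitochondrial synthetase genes, 7 were lower in anti-Lag3 replicate 2 and 8 higher in anti-PD1 replicate 2. Of 18 genes of the IRE1 and ATF6 arms of the unfolded protein response, which act beside the ATF4 arm, 7 were lower and 7 higher, respectively.

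Among the other lists, 11 amino acid transporters outside the set came nearest to the members, with 8 lower in anti-Lag3 replicate 2 (median −0.19) and 10 higher in anti-PD1 replicate 2 (median 0.42). A list of 10 genes held eIF2alpha, its kinases, its phosphatases, and the related genes *Eif2b5*, *Gcn1l1*, and *Impact*. Of these 10, 7 were lower in anti-Lag3 replicate 2 and 5 higher in anti-PD1 replicate 2. Of 12 other amino acid enzymes, 7 were lower and 6 higher, of 13 other folate and one-carbon enzymes 6 were lower and 9 higher, and of 15 genes of amino acid sensing by mTORC1 6 were lower and 8 higher. No test compared these lists with the members, which were chosen with the anti-Lag3 gap in view.

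The gaps were also read in members with and without the CARE core printed above. With the core, 12 of 12 tested members were lower in anti-Lag3 replicate 2 (median −0.39) and 11 of 12 higher in anti-PD1 replicate 2 (median 0.25). Without it, 18 of 21 members with a window were lower (median −0.38) and 18 of 21 higher (median 0.27). Of the other 223 tested genes with the core in their window, 52.0% were lower in anti-Lag3 replicate 2 and 48.4% higher in anti-PD1 replicate 2, close to the shares of all genes. The counts of members in each direction were thus alike with and without the core, and no test compared them. Members, but not the other genes, were chosen partly for the anti-Lag3 gap. Nothing is therefore read from members set beside other genes with the core.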

How the data were processed

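The data were 3′ mRNA counts of 6 libraries in 3 groups of 2 (isotype, anti-PD1, and anti-Lag3), grouped by the treatment given in the labels. The authors trimmed reads, aligned them with STAR 2.5.2a to GRCm38, and deposited raw whole-number counts per Ensembl gene from HTSeq. The rlog values that the authors deposited, on a log2 scale, served here as an alternative. The annotation release and strand setting are not given in the sources used here. All 6 columns of each table were used, and 0 columns of per-sample values were left out.

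Genes were named from GENCODE M21 (47224 of 47643 identifiers matched), and promoter windows were taken from RefSeq. Genes with at least 10 reads over 6 libraries (11877) were tested in a single edgeR 4.0.16 fit (R 4.3.3, TMM, glmQLFit, and glmQLFTest, common dispersion 0.016, prior worth 37.2 degrees of freedom), with Benjamini-Hochberg adjustment over all of them and a threshold of 0.05. Log2 CPM used a prior count of 2. The scripts were tested on simulated data. The design text calls the samples biological duplicates, and the methods describe cells of replicate mice labelled separately before sorting. The edgeR p-values do not measure the spread of a gene's own 2 samples per group alone. The fit pooled that spread over the 3 groups. With a prior worth 37.2 degrees of freedom, it drew the spread strongly toward that of other genes. An exact permutation test of 2 against 2 cannot go below 0.333, so none was used.

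The members and lists were chosen with earlier results of these data known. Library values were given for *Atf4*, members that passed a comparison, the 3 members with the smallest p in each comparison, the 3 with the most reads in each role, and the member of each role with the largest anti-Lag3 gap among those with at least 60 reads, and for some others picked after their values were seen. Alternatives were DESeq2 1.42.0, limma-voom (limma 3.58.1), the 4 samples of a comparison alone, other scalings and filters, a threshold of 0.1, prior counts of 0.5 and 5, rlog values, the replicate number as a block, and each library left out. Figures were drawn with matplotlib 3.10.9.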

Additional observations from a re-analysis of the deposited data

How the results depend on the processing

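For anti-PD1 against isotype, the count of members passing stayed at 0 under all settings run except without isotype replicate 2, where *Chac1* passed, so that the range with a library left out was 0 to 1. For anti-Lag3 against isotype, the count was 0 except with no filter beyond 1 read (2, *Atf4* and *Chac1*), and it ran from 0 to 7 with a library left out: 1 without isotype replicate 1 (*Chac1*) and 7 without anti-Lag3 replicate 1. For anti-PD1 against anti-Lag3, the count of 2 went to 0 with DESeq2 and to 4 with no filter beyond 1 read, which added *Ddit3* and *Ddit4*, and it ran from 0 (without anti-PD1 replicate 2) to 7 (without anti-Lag3 replicate 1) with a library left out. It was 1 without anti-Lag3 replicate 2 (*Atf4*) and 4 without anti-PD1 replicate 1. Limma-voom, the 4 samples alone, other scalings, and filterByExpr kept it at 2, and a threshold of 0.1 gave 3. The cause of these changes was not tested. No log2 difference of *Atf4* or *Chac1* between anti-PD1 and anti-Lag3 changed sign under any setting. The anti-Lag3 values entered the choice of members, so this is a description and not support for the calls.

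Over all genes, the number of calls also moved by more than 1.5 times: from 107 to 46 to 161 in anti-PD1 against isotype, from 5 to between 0 and 20 in anti-Lag3 against isotype, and from 36 to between 3 and 58 in anti-PD1 against anti-Lag3.

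With the replicate number as a replicate block, 0, 0, and 3 members passed in anti-PD1 against isotype, anti-Lag3 against isotype, and anti-PD1 against anti-Lag3, the third being *Ddit3* (adjusted p = 0.0232). Replicate differences of the groups had Pearson correlations of 0.0206 (isotype and anti-PD1), 0.0182 (isotype and anti-Lag3), and −0.0104 (anti-PD1 and anti-Lag3) across 11877 genes, which are not independent replicates, and of 0.257, −0.217, and −0.38 across the 39 members. These values do not pair the libraries, and whether a number marks a shared sort or batch is not stated.

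The deposited rlog values, which shrink differences of low counts, lowered all 6 medians of the members. Within groups they went from 0.12 to 0.0564 (isotype), 0.27 to 0.13 (anti-PD1), and 0.41 to 0.185 (anti-Lag3). Between groups they went from 0.25 to 0.0814 (anti-PD1 and isotype), 0.28 to 0.141 (anti-Lag3 and isotype), and 0.34 to 0.136 (anti-PD1 and anti-Lag3). With at least 1000 reads per gene, a setting added after the data were seen that kept 20 members, the median between anti-PD1 and isotype was 0.166. In each of these settings the median within anti-Lag3 stayed above the 3 medians between groups. Members with few reads are limited by depth: *Chac1* and *Slc6a9* rested on 6 reads and *Sesn2* and *Asns* on 10 in anti-Lag3 replicate 2.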

Other observations

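Several genes outside the set, picked after their values were seen, had gaps between libraries of the same group as wide as those of the stress effectors. *Gpt2*, which encodes mitochondrial alanine aminotransferase, was at 5.18 and 7.25 CPM in isotype, 1.92 and 13.5 CPM in anti-PD1, and 14.3 and 0.743 CPM in anti-Lag3. The anti-Lag3 libraries of *Gpt2* were the highest and the lowest of the 6, from 34 and 2 reads, and no comparison of groups passed (edgeR adjusted p = 0.973 for anti-PD1 and 0.985 for anti-Lag3 against isotype, and 0.995 between them). *Eif4ebp1*, which encodes an inhibitor of cap-dependent translation controlled by mTORC1, was at 66.5 and 48.3 CPM in isotype, 39.8 and 54.0 CPM in anti-PD1, and 75.1 and 17.1 CPM in anti-Lag3.

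*Cth*, an enzyme of cysteine synthesis, and *Aldh1l2*, a mitochondrial folate enzyme, had few reads. *Cth* had 10 and 7 reads in isotype, 0 and 6 in anti-PD1, and 9 and 0 in anti-Lag3. *Aldh1l2* had 8 and 4 reads in isotype, 0 and 6 in anti-PD1, and 11 and 0 in anti-Lag3. For both genes, anti-PD1 replicate 1 and anti-Lag3 replicate 2 held 0 reads, which allows up to 1.44 and 1.11 CPM.

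*Herpud1*, which encodes a protein of endoplasmic reticulum degradation, was at 37.2 and 62.4 CPM in isotype, 65.2 and 76.5 CPM in anti-PD1, and 51.5 and 24.9 CPM in anti-Lag3. Both anti-PD1 libraries were above the other 4, and *Herpud1* was lower in anti-Lag3 replicate 2 by 1.02 on the log2 scale.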
